A study of Mus musculus with 24 samples.

Results

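RNA-seq levels were compared between 3T9 mouse fibroblasts carrying the HEA form of MycER and cells carrying the RA form, both after 8 h in OHT. The comparison was made between the 3 HEA and the 3 RA libraries of that time, 6 of the 24 in the series, over every gene with at least 1 RPKM (a read count per kilobase of gene, scaled to the depth of the library) in at least 3 libraries, which was 12268 of 21671 genes. The series holds 8 groups of 3 libraries: an empty vector (EV) or MycER in its WT, HEA or RA form, each with 4 h or 8 h of OHT. All groups, the EV controls included, were of the same line, had been infected with a vector and were in OHT, and libraries without OHT were not analysed here. EV cells at 8 h served as a reference level, and the HEA and RA libraries of 4 h as a repeat of the contrast at another time.

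Myc is a transcription factor that binds DNA as a dimer with Max, through a basic region that lies in the major groove and reads the E-box, CACGTG or a close variant. In MycER, Myc is joined to the part of the oestrogen receptor that binds hormone, so that the protein is made all the time and OHT (4-hydroxytamoxifen) lets it act. HEA carries substitutions in residues of the basic region that contact the bases of the E-box, and RA carries substitutions in arginines that contact the DNA backbone; this is background knowledge, since the labels give the names of the forms only. The comparison therefore set the form lacking contacts to the bases against the form lacking contacts to the backbone. 3T9 is an immortalised embryonic fibroblast line that keeps its own Myc gene, so endogenous Myc was present in all groups.

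The 6 libraries held 10.1 to 11.8 M reads, recovered from the steps of the RPKM values, against 9.82 to 12.8 M over the series. The first principal component of the 6 libraries took 72.7% of their variance and put all HEA libraries (-32.9 to -24.0) on the other side of 0 from all RA libraries (27.0 to 30.2). HEA replicate 1 stood apart on the next component, which took 8.97%, at 18.9 against -10.7 to 4.01 in the other libraries. Summed fibroblast markers ran from 1219 to 1316 RPKM in HEA and from 1204 to 1241 in RA, with 3 higher and 1 lower of 17 tested. Thy1, a surface marker of many fibroblasts, was near 0 in both (0.208 and 0.187 RPKM). All 12 epithelial markers were under 1 RPKM in each of the 6 libraries, and their sum was 1.05 to 1.78 RPKM in HEA and 1.32 to 1.74 in RA. Transcripts that track nuclear RNA and RNA quality summed to 887 to 911 RPKM in HEA and 910 to 944 in RA, and its part in the results was not tested.

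Esr1, which lends the constructs their hormone-binding part, was at 11.0, 10.4 and 9.26 RPKM in the HEA libraries and at 10.5, 11.4 and 11.5 in the RA libraries, against a mean of 0.189 in EV. The groups overlapped, and the log2 fold change of HEA against RA was -0.12 ± 0.14 (SE, limma adjusted p = 0.51). Reads assigned to Myc gave 46.8, 55.7 and 45.9 RPKM in HEA and 58.1, 66.2 and 65.0 in RA, with EV at 57.9, 56.5 and 60.2. All 3 HEA values lay below the 3 RA values, but the difference of -0.35 ± 0.17 did not pass (adjusted p = 0.0918). It passed when the spread was estimated from the compared groups alone (adjusted p = 0.00835), and its range over the 16 other settings tried was 0.00835 to 0.217. Whether the Myc reads come from the cell's own gene or from the construct cannot be told apart here. Fold changes here and below are log2 values ± SE on the scale of log2(RPKM + 0.5), which understates the change of low genes, and levels are in RPKM, as single libraries in the order of replicates 1 to 3 or as mean ± SD of 3.

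HEA and RA cells differed at a large share of their genes. At an adjusted p under 0.05, limma called 5513 of 12268 genes (44.9%), of which 2195 were higher in HEA (17.9% of those tested) and 3318 lower (27.0%). Most of these differences were small: a change of 2-fold or more was seen at 361 of the higher genes (2.94% of those tested) and 351 of the lower ones (2.86%), and the median log2 fold change over all tested genes was -0.06. The filter on RPKM was passed only through the HEA or RA libraries of 8 h by 29 of the higher and 23 of the lower genes. Among those changed by 2-fold or more, 8 higher and 5 lower genes passed it in that way. The large differences were mostly rises, with 41 genes higher and 7 lower by 4-fold or more, and 6 higher and 0 lower by 8-fold or more. The split of the calls depended on scaling, since 39.8% were higher as deposited, 48.9% with each library centred on its median and 46.7% after quantile normalisation. The 3 libraries of a group lay wholly above the 3 of the other at 7456 genes (60.8%), so separation of the groups is common in this comparison. The labels number the libraries 1 to 3 and do not mention separate cultures, so the p-values reflect the spread among these libraries alone, and that spread may be technical.

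**Figure D1:**
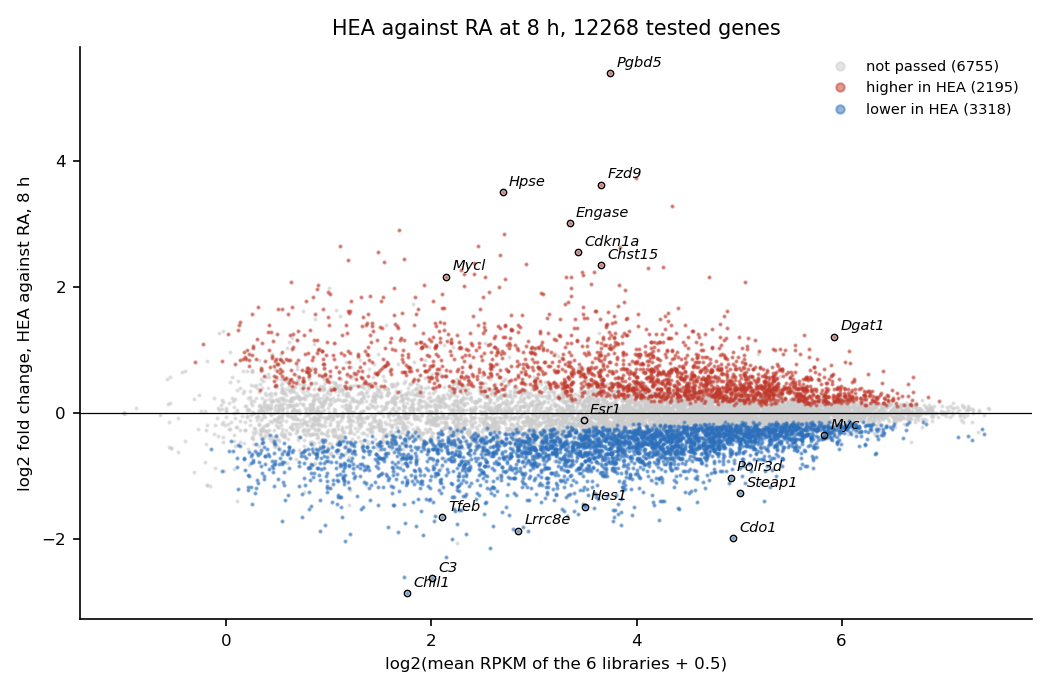
Log2 fold change of HEA against RA at 8 h (vertical axis) against log2 of the mean RPKM of the 6 libraries + 0.5 (horizontal axis), 1 point per tested gene, red where higher in HEA (2195), blue where lower (3318) and grey where the test did not pass. On this scale, which shrinks changes at low levels, the upper side reaches farther than the lower one, from Pgbd5 at 5.39 to Chil1 at -2.86. Circled genes are named in the text.

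Set against EV at 8 h, the genes that separated HEA from RA were mostly nearer to the EV level in RA than in HEA cells. EV lay nearer to RA than to HEA for 1959 of the 2195 genes higher in HEA (89.2%) and for 2855 of the 3318 genes lower (86.0%). The same share over all tested genes was not counted, so these shares cannot be read as particular to the called genes. Over all tested genes the median difference from EV was -0.05 in HEA and 0.00 in RA. Among genes at least 2-fold higher, the median difference from EV was 1.35 in HEA and 0.00 in RA. Among those at least 2-fold lower it was -1.06 in HEA and 0.18 in RA, and EV was nearer to RA for 301 of 351. Both differences use the same 3 EV libraries, so they are given as levels side by side with no test.

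The gene farthest apart was Pgbd5, a domesticated piggyBac transposase gene. It was at 26.0, 27.4 and 23.7 RPKM in HEA and at 0.162, 0.191 and 0.0299 in RA, with a mean of 0.0503 in EV. Its log2 fold change was 5.39 ± 0.14 (adjusted p = 3.22e-16), and an average RA library held 4 reads of it against 757 in HEA. On the voom scale, which works on the recovered reads, the value was 7.78, and with a pseudocount of 1 it was 4.57.

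The next named rises were at Fzd9, Hpse, Engase and Frat1. Fzd9, a frizzled receptor for Wnt ligands, stood at 23.8, 23.4 and 21.3 RPKM in HEA against 1.69, 1.19 and 1.32 in RA, and rose by 3.62 ± 0.18 (adjusted p = 1.09e-11). Frat1, which binds the kinase GSK3 in the Wnt pathway, was at 5.08, 5.19 and 5.27 against 0.315, 0.275 and 0.194 (2.90 ± 0.20, adjusted p = 1.22e-09). For both genes the RA level was close to that of EV, 1.31 for Fzd9 and 0.249 for Frat1. Hpse, the heparanase that cuts heparan sulfate, was at 10.2, 12 and 12 RPKM in HEA and 0.763, 0.413 and 0.510 in RA (3.5 ± 0.18, adjusted p = 2.33e-11). Engase, an enzyme that trims free N-glycans in the cytosol, went from 1.75 ± 0.19 in RA to 17.6 ± 1.1 in HEA (3.01 ± 0.15, adjusted p = 1.33e-11). The naming rule took only genes whose HEA and RA libraries did not overlap, so their separation is not a result. Such separation was seen at 60.8% of all tested genes.

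Among the other large rises, Cdkn1a, which encodes the cell cycle inhibitor p21, was at 17.5, 19.4 and 16.9 RPKM in HEA and 2.32, 2.64 and 2.98 in RA. Its log2 fold change was 2.55 ± 0.26 (adjusted p = 1.65e-07), and EV was at 3.49 ± 0.23. Gls2, a mitochondrial glutaminase, was at 22.5, 25.4 and 24.5 against 3.81, 3.07 and 3.55 (2.63 ± 0.16, adjusted p = 1.92e-10). Grb14, an adaptor that holds back insulin receptor signalling, rose by 2.64 ± 0.14 from a mean of 4.33 reads per RA library. Trim7, a ubiquitin ligase that binds glycogenin, Foxo6, a forkhead factor, Reep6, an endoplasmic reticulum shaping protein, and Peli3, a Pellino ubiquitin ligase, rose by 2.65, 2.55, 2.51 and 2.44. Pm20d2, a dipeptidase, and Kif27, a kinesin, rose by 2.42 and 2.39. For genes this low in RA the size moved with the scale: voom gave 4.25 for Frat1, 5.02 for Grb14, 3.72 for Foxo6, 3.22 for Peli3, 3.94 for Pm20d2, 3.34 for Kif27 and 4.36 for Hpse, all in the same direction.

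**Figure D2:**
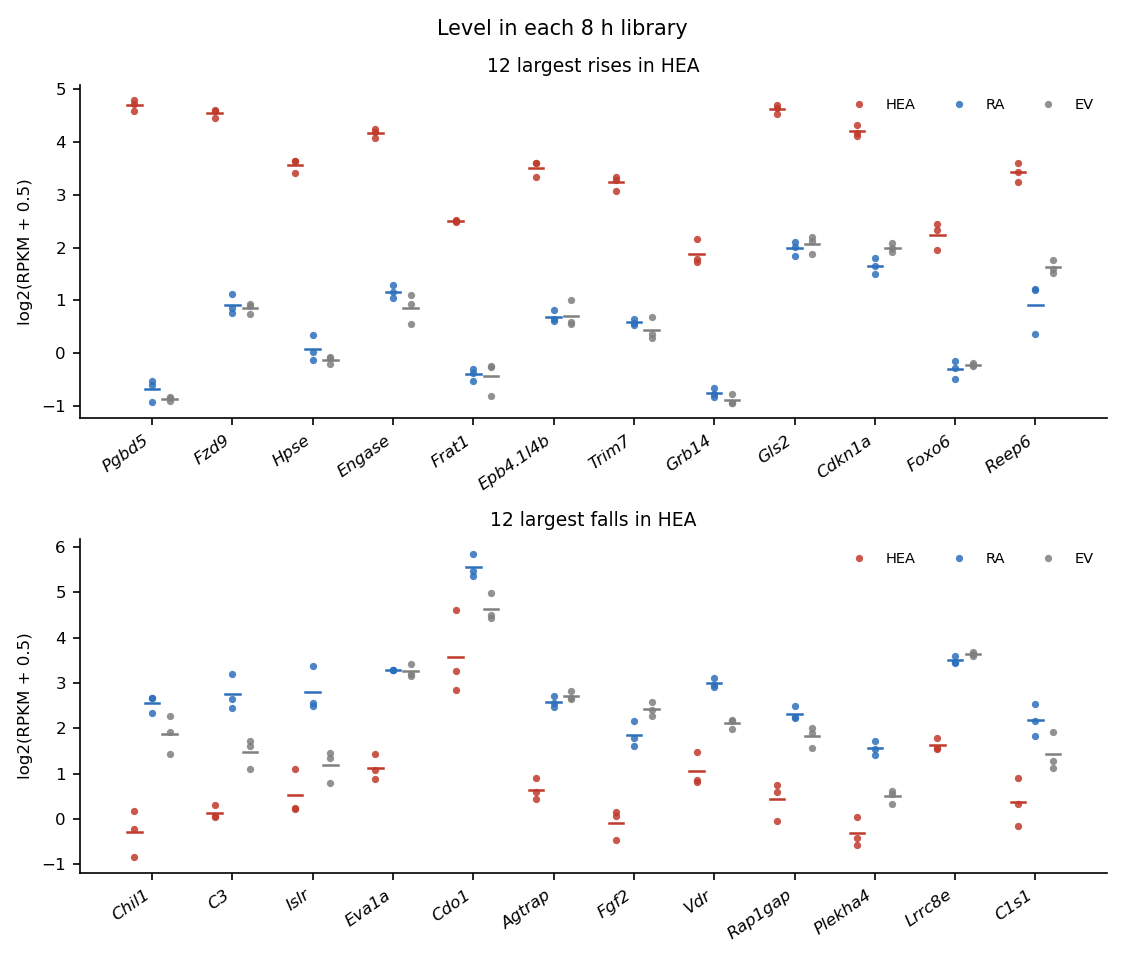
Level of the 12 largest rises (upper panel) and 12 largest falls (lower panel) among the genes named by the rule, as log2(RPKM + 0.5) on the vertical axis, with a point for each of the 3 HEA, 3 RA and 3 EV libraries of 8 h and a bar at each group's mean. In the upper panel RA and EV both lie below HEA, close together for Fzd9 (1.4 and 1.31 RPKM against 22.8) and with RA below EV for Reep6 (1.46 against 2.59), while in the lower panel RA stands above EV for genes such as C3 (6.45 against 2.32).

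The largest fall was at Chil1, which encodes a secreted chitinase-like protein: 0.352, 0.0543 and 0.636 RPKM in HEA against 5.86, 4.58 and 5.86 in RA. It fell by 2.86 on the log2 scale (SE 0.27, adjusted p = 5.95e-08), and EV was between the groups at 3.26 ± 1.1. C3, the central complement component, was at 0.541, 0.536 and 0.742 against 8.67, 4.94 and 5.75 (-2.62 ± 0.33, adjusted p = 2.15e-06), with EV at 2.32. Islr, a secreted protein of mesenchymal cells, was at 0.673, 0.662 and 1.66 against 9.92, 5.08 and 5.42 (-2.29 ± 0.45, adjusted p = 0.000302), with EV at 1.84. At these 3 genes HEA was below EV and RA above it. Vdr, the vitamin D receptor, had the same order, at 1.27, 2.30 and 1.32 RPKM in HEA, 8.10, 7.27 and 7.03 in RA and 3.81 ± 0.29 in EV (-1.93 ± 0.15, adjusted p = 6.56e-09). Cdo1, which oxidises cysteine, was at 9.13, 6.65 and 23.9 in HEA against 56.9, 43.5 and 40.8 in RA. HEA replicate 3 stood well above the other HEA libraries at Cdo1, and its difference of -1.99 ± 0.46 ran from -2.50 to -1.62 over the settings tried.

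At Eva1a, Lrrc8e and Agtrap the RA level was close to that of EV. Eva1a, a membrane protein linked to autophagy, was at 2.19, 1.35 and 1.6 RPKM in HEA, 9.17, 9.21 and 9.23 in RA and 9.07 in EV (-2.15 ± 0.15, adjusted p = 1.15e-09). Lrrc8e, a subunit of volume-regulated anion channels, was at 2.40, 2.46 and 2.95 against 11.6, 10.5 and 10.3 (-1.87 ± 0.10, adjusted p = 2.90e-11), with EV at 11.9. Agtrap, which binds the type 1 angiotensin receptor, was at 0.861, 1.00 and 1.36 against 6.0, 5.07 and 5.42 (-1.94 ± 0.17, adjusted p = 1.89e-08), with EV at 6.04. HEA was the group that stood apart at all 3. Suox, the sulfite oxidase, and Foxf1, a forkhead factor of mesenchyme, fell by 1.81 and 1.79 on the log2 scale, with RA at 11.0 and 8.94 RPKM against 10.2 and 7.15 in EV. Rap1gap, an inactivator of the GTPase Rap1, and Klc3, a kinesin light chain, fell by 1.89 and 1.80, with RA at 4.51 and 5.13 RPKM and EV below it at 3.07 and 3.99. Fgf2, a fibroblast growth factor, fell by 1.93 from 2.57, 2.93 and 3.99 RPKM in RA to 0.223, 0.618 and 0.548 in HEA, with a mean of 4.33 reads per HEA library and with EV above both at 4.86. Fgf2 overlaps the antisense gene Nudt6, and no source used here gives the strand setting of the counting. C1s1, a complement protease gene with a close copy in the mouse, fell by 1.81 and is uncertain for that reason, with RA at 4.11 and EV at 2.29 RPKM.

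The stretches before the start sites of 6 of these genes are printed as examples of sequences with or without an E-box, from genes that differed in both directions. They were chosen after the values were seen, and are the 250 bases before the start in RefSeq (build GRCm38.p6, not the mm9 build named in the submitters' processing notes), in gene orientation, with CACGTG and its variant CACGCG, read on either strand (CGCGTG is CACGCG on the other strand), in capitals.
Fzd9: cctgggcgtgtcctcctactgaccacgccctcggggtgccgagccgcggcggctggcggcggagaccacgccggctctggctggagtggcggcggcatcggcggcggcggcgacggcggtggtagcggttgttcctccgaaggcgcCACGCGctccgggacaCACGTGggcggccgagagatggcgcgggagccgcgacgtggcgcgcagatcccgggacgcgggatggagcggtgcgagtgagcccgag
Frat1: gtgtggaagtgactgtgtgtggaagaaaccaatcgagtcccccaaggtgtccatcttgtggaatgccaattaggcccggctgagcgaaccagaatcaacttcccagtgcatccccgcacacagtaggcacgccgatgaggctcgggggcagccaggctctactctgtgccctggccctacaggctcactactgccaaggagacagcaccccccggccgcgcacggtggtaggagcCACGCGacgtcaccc
Hpse: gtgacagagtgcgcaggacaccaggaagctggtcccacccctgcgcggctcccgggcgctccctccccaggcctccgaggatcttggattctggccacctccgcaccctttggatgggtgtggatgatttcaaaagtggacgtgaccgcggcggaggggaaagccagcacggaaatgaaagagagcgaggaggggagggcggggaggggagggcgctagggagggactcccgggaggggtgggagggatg
Eva1a: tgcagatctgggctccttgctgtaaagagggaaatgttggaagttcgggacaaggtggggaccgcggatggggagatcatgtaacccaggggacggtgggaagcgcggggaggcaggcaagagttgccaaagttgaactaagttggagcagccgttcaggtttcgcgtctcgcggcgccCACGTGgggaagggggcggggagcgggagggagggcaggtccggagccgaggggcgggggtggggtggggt
Agtrap: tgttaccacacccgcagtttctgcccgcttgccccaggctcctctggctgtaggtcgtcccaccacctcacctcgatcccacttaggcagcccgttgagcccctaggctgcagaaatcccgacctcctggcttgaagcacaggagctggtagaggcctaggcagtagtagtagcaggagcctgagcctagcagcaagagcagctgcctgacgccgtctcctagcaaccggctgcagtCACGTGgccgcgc
Lrrc8e: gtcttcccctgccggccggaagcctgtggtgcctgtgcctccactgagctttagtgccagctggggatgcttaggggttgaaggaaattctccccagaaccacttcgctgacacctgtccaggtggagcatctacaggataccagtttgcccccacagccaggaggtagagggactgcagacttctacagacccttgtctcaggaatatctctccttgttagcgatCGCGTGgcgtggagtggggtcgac

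These windows lie at chr5:135251048-135251297 (Fzd9, minus strand), chr19:41829720-41829969 (Frat1, plus), chr5:100719717-100719966 (Hpse, minus), chr6:82041378-82041627 (Eva1a, plus), chr4:148088065-148088314 (Agtrap, minus) and chr8:4226577-4226826 (Lrrc8e, plus) of GRCm38.p6. Among the 3 genes that rose, Fzd9 held 1 CACGTG and 1 CACGCG, Frat1 held 1 CACGCG and Hpse held neither. Among the 3 that fell, Eva1a and Agtrap each held 1 CACGTG and Lrrc8e held 1 CACGCG. Over all 32851 windows of that length in the table, 6.02% held CACGTG and 7.62% CACGCG. The 6 genes were picked by hand, so their matches cannot be set against these shares. Windows could be matched to 9514 of the 12268 tested genes (77.6%), below the 80% set as the least for comparing groups of genes, so such a comparison is void and none was made.

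The gene lists below are to be read against all tested genes, of which 17.9% were higher and 27.0% lower, with a median of -0.06. Rises and falls are of HEA against RA, and do not say which of these groups departed from EV. The settings and left-out libraries that moved a list's counts most are named with it.

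Genes of the Myc/Max network, the proteins that share Max or its relatives as partners, differed in both directions, with 3 higher and 2 lower of 11 tested. The lower ones were 1 without HEA replicate 1 or RA replicate 1, and the counts were 2 and 2 without any of the other 4 libraries or with no filter on low values. Mycl, a paralogue of Myc, was at 7.46, 7.40 and 5.33 RPKM in HEA against 1.07, 1.07 and 1.15 in RA, with EV at 1.24, and rose by 2.16 ± 0.16 (adjusted p = 2.55e-09). Mxi1, a Max partner that represses, was at 21.2, 21.7 and 20.5 against 7.57, 8.25 and 9.19 (1.30 ± 0.12, adjusted p = 3.26e-08). Mlx, the Max-like partner of the Mondo factors, was lower in HEA, at 18.7 against 28.0 RPKM (-0.58 ± 0.14, adjusted p = 0.00244). Mxd3 at -0.48 and Mxd4 at 0.39, both Max partners that repress, passed at adjusted p = 0.0209 and 0.0394, and each lost the call when single libraries were left out (up to 0.109 without HEA replicate 1 for Mxd3, and 0.197 without RA replicate 2 for Mxd4). The HEA and RA values of Mxd4 overlapped.

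Of 19 tested genes of RNA polymerase III and its factors, which make tRNA, 9 fell (47.4%) and 6 rose (31.6%), with a median log2 fold change of -0.28. Over the settings tried, 7 to 11 fell and 4 to 6 rose. Polr3d, a subunit of that polymerase, was at 17.7, 20.5 and 19.9 RPKM in HEA and 42.4, 37.8 and 40.0 in RA (-1.03 ± 0.07, adjusted p = 6.60e-10), with EV at 43.9. The catalytic subunits Polr3a and Polr3b fell by 0.70 and 0.71 on the log2 scale, while Gtf3c1, of the factor that recruits the polymerase to tRNA genes, rose by 0.78. Of 18 genes of RNA polymerase I and rRNA synthesis 8 fell (44.4%), 1 rose and 9 did not pass (median -0.16). The falls were 5 without RA replicate 1, and the rises 2 with median centring, with quantile normalisation or with only the groups compared. Polr1a and Polr1b, its catalytic subunits, fell by 0.40 and 0.37, the shared subunit Polr2h by 0.82, and Polr1c rose by 0.22.

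Ribosome assembly factors gave 28 lower (40.6%) and 10 higher (14.5%) of 69 tested, with 31 that did not pass and a median of -0.13. The higher ones were 5, 6 and 4 without HEA replicate 2, HEA replicate 3 and RA replicate 2. Pwp2, of the small subunit processome, was at 21.4, 24.8 and 24.1 RPKM in HEA and 50.3, 41.5 and 43.2 in RA (-0.93 ± 0.07, adjusted p = 8.11e-09), against 47.9 in EV. Utp14a and Utp20, of the same complex, fell by 0.85 and 0.46, whereas Ddx10, a helicase, and Noc4l, a small subunit factor, rose by 0.63 and 0.45. The cytosolic ribosomal proteins differed little: 0 rose and 4 fell of 68 by limma, with a median of -0.01. Rps12, Rps9 and Rpsa fell by 0.20, 0.17 and 0.15 on the log2 scale, and none of the 3 passed with median centring (adjusted p = 0.0543, 0.115 and 0.219). Over the settings tried, 0 to 5 of these genes were higher and 0 to 8 lower, so no direction is given for them. Of the 68 genes, 41 were above 1 read per base of gene, and the treatment of duplicate reads, not given in the sources used here, was not tested.

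Translation factors and tRNA synthetases gave 7 higher and 3 lower of 48 (20.8% called, against 44.9% of all genes). This split was not stable: it was 2 higher and 3 lower without HEA replicate 2, 4 and 3 without HEA replicate 3, 4 and 4 without RA replicate 2, and 4 and 2 without RA replicate 3. Wars and Tars, the tryptophan and threonine synthetases, fell by 0.51 and 0.22, and Eif4ebp2, an inhibitor of cap-dependent translation, rose by 0.80. Mitochondrial import, ribosome and chaperone genes gave 9 lower (23.7%) and 3 higher (7.89%) of 38 (median 0.02; 31.6% called against 44.9% of all genes). The lower and higher counts were 5 and 5 with median centring, 8 and 5 with quantile normalisation, 10 and 5 with only the groups compared, 5 and 3 without RA replicate 3, and 7 and 1 without HEA replicate 3 or RA replicate 2. Timm10, a small chaperone of the intermembrane space, was at 18.2, 23.1 and 20.8 RPKM in HEA and 44.8, 42.3 and 48.0 in RA (-1.11 ± 0.10, adjusted p = 4.48e-08), and Timm50 and Mrpl16 fell by 0.51 and 0.56. Tomm34 rose by 0.23 and Mrps12 by 0.41, and Mrps12 did not pass without HEA replicate 3 (adjusted p = 0.0552) or RA replicate 2 (0.0636). Cytosolic chaperones gave 7 higher (22.6%) and 4 lower (12.9%) of 31, with Fkbp5, a co-chaperone of steroid receptors, up by 0.68 and Hspa1a and Hspa1b down by 0.75 and 0.69. Hspa1a and Hspa1b are near-identical copies and their values are uncertain.

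**Figure D3:**
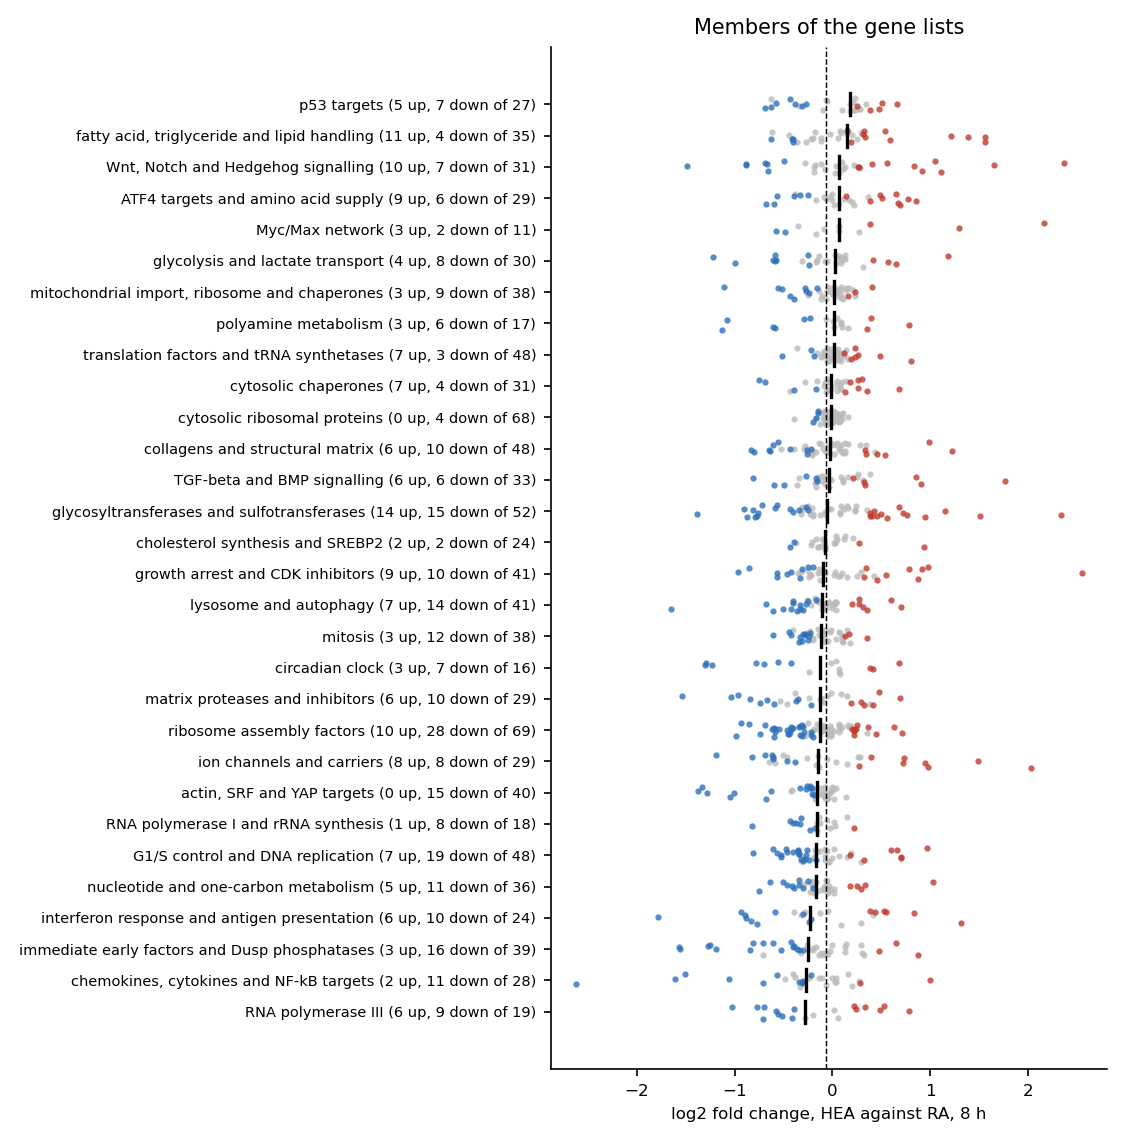
Log2 fold change of HEA against RA at 8 h (horizontal axis) for each tested member of the 30 gene lists (1 row per list, ordered by median; points spread vertically only to be seen), red where higher, blue where lower and grey where the test did not pass. Black bars mark each list's median and the dashed line the median of all tested genes, -0.06; most lists hold calls on both sides, with the lowest median for RNA polymerase III (-0.28) and the highest for p53 targets (0.18).

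In nucleotide and folate metabolism 11 genes were lower (30.6%) and 5 higher (13.9%) of 36 (median -0.17). Over the settings tried, 10 to 15 were lower and 4 to 5 higher. Mthfd1, a folate enzyme, and Pfas, of purine synthesis, fell by 0.75 and 0.46, and Impdh1, of guanine nucleotide synthesis, was higher at 43.9, 44.9 and 41.0 RPKM against 20.1, 20.0 and 22.9 (1.03 ± 0.13, adjusted p = 4.03e-06). Psat1, of serine synthesis, rose by 0.29. Glycolysis and lactate transport gave 8 lower (26.7%, near the 27.0% of all genes) and 4 higher of 30 (median 0.03), and 4 lower without HEA replicate 2 and 5 without RA replicate 1. Pfkfb4, which sets the level of a fructose bisphosphate that regulates glycolysis, was at 5.87, 6.49 and 6.18 against 16, 14.6 and 14.6 (-1.22 ± 0.09, adjusted p = 1.38e-09). In the other direction, Pdk1, an inhibitor of pyruvate dehydrogenase, rose by 1.18 and Gpi1, a glycolytic isomerase, by 0.57. Polyamine genes gave 6 lower (35.3%) and 3 higher (17.6%) of 17. Sat2 and Azin2 were lower in HEA than in RA by 1.13 and 1.08, with EV between the groups at both (5.05 and 3.02 RPKM). Atp13a2, a polyamine exporter of the lysosome, and Azin1, an antizyme inhibitor, were up by 0.78 and 0.40. ATF4 targets and amino acid supply gave 9 higher (31.0%) and 6 lower (20.7%) of 29, with 3 lower without HEA replicate 1. Gpt2, an alanine aminotransferase, and Slc1a4, a neutral amino acid carrier, rose by 0.86 and 0.49, and the glutamine carrier Slc1a5 and the proline enzyme Pycr1 fell by 0.60 and 0.57.

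The 3 enzymes of triglyceride storage named here were higher in HEA. Agpat2, which makes phosphatidic acid, was at 22.3, 23.6 and 24.9 RPKM in HEA against 7.31, 7.82 and 7.89 in RA (1.56 ± 0.12, adjusted p = 3.39e-09). Dgat2 and Dgat1, which both add the last fatty acid, were at 11.6, 14.1 and 12.4 against 3.66, 4.67 and 3.61 (1.56 ± 0.13) and at 87.2, 83.1 and 82.9 against 36.4, 33.7 and 38.3 (1.21 ± 0.10). The groups were far apart at all 3 genes, and EV was near RA, at 8.40, 4.13 and 32.6. Of the 35 tested genes of fatty acid, triglyceride and lipid handling 11 rose (31.4%) and 4 fell (11.4%), with a median of 0.15 (13 and 7 with only the groups compared), the falls including Plin2, a lipid droplet coat protein (-0.40). Cholesterol synthesis gave 2 higher and 2 lower of 24 (8.33% each; 1 and 5 without HEA replicate 2, 1 and 2 without RA replicate 2), with Dhcr7, its last enzyme, up by 0.94, and Scap, the SREBP escort, and Ebp, a sterol isomerase, down by 0.43 and 0.39.

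Of 48 genes of G1/S control and DNA replication 19 fell (39.6%) and 7 rose (14.6%), with a median of -0.17. Without HEA replicate 1, which stood apart from the other libraries as described above, 10 fell and 5 rose (median -0.11). Cdk2, the kinase of S phase entry, was at 28.0, 30.3 and 32.8 RPKM in HEA against 46.5, 46.2 and 46.7 in RA (-0.61 ± 0.07, adjusted p = 4.14e-07), and Mcm10, a replication factor, fell by 0.57. Rb1, which restrains E2F factors, rose by 0.97 and Orc1, of the origin recognition complex, by 0.70. Mitosis genes gave 12 lower (31.6%, near the 27.0% of all genes) and 3 higher of 38 (median -0.12), and 0 to 1 higher by limma with no trend or without any of 5 of the 6 libraries (RA replicate 1 being the other). Among them, Prc1, Birc5 and Aurka fell by 0.42, 0.33 and 0.31. Aurkb (0.17) and Kif22 (0.35) were called higher at adjusted p = 0.0296 and 0.0433, and both lost the call in several settings (up to 0.0938 without HEA replicate 3 for Aurkb, and 0.15 without RA replicate 2 for Kif22).

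Growth arrest genes and CDK inhibitors gave 9 higher (22.0%) and 10 lower (24.4%) of 41 (median -0.10), and 11 and 8 with median centring, 8 and 6 without HEA replicate 1 and 9 and 6 without RA replicate 3, so the rise of Cdkn1a stood beside calls in both directions. Ndrg1, a stress gene, was at 29.6, 33.8 and 28.8 against 16.5, 15.3 and 17.5 RPKM (0.88 ± 0.11, adjusted p = 1.30e-06), and its relative Ndrg4 fell by 0.85. Of 27 tested p53 targets, a list kept apart from Cdkn1a, 5 rose (18.5%) and 7 fell (25.9%), with a median of 0.18, and 8 rose and 7 fell with median centring or quantile normalisation, so no direction is given for the list. Perp, a junction protein, rose by 0.48 and Ptp4a3, a phosphatase, by 0.66, and Ddb2, a DNA repair factor, and Tnfrsf10b, a death receptor, fell by 0.69 and 0.31. Lysosome and autophagy genes gave 14 lower (34.1%) and 7 higher (17.1%) of 41 (median -0.11; 4 higher without RA replicate 2). Tfeb, the factor that drives lysosome genes, was at 1.43, 1.41 and 1.89 RPKM in HEA and 6.47, 5.44 and 6.14 in RA (-1.65 ± 0.14, adjusted p = 2.11e-08), with EV at 5.06. Uvrag and Flcn, regulators of autophagy, fell by 0.61 and 0.50, and the lysosomal galactosidase Gla and Gabarapl1, of the autophagosome, rose by 0.70 and 0.35.

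Of 39 immediate early factors and Dusp phosphatases, genes that respond to growth factor signalling, 16 fell (41.0%) and 3 rose (7.69%), with a median of -0.25. Over the settings tried, 11 to 18 fell and 3 to 4 rose, with the fewest falls without HEA replicate 1. Etv5, a factor induced by ERK signalling, was at 5.50, 7.40 and 6.80 RPKM against 16.4, 16.1 and 16.8 (-1.27 ± 0.10, adjusted p = 4.70e-09), and Dusp6, the ERK phosphatase, at 11.5, 18.6 and 15.6 against 36.3, 32.8 and 35.1 (-1.19 ± 0.13, adjusted p = 6.16e-07). Both were at the EV level in RA (16.8 and 36.1 in EV). The rises among them were Spry1, an inhibitor of receptor tyrosine kinase signalling (0.88), and Dusp7 (0.48), the named genes on that side. Actin, SRF and YAP targets gave 0 higher and 15 lower (37.5%) of 40 by limma (median -0.16; 0 to 1 higher and 12 to 21 lower over the settings tried). Tgfb1i1, a focal adhesion protein, was at 6.69, 8.45 and 7.53 against 19.0, 21.3 and 20.3 (-1.37 ± 0.22, adjusted p = 3.31e-05), and the smooth muscle genes Actg2 and Cnn1 fell by 1.28 and 1.05. Of 10 muscle markers 9 were under 1 RPKM in each of the 6 libraries, and the 1 that was tested was lower in HEA (-0.78). Their sum was 2.27 to 2.90 RPKM in HEA and 3.85 to 4.10 in RA, and their part in this result was not tested.

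Matrix and inflammation genes differed in both directions. Collagens and structural matrix genes gave 6 higher (12.5%) and 10 lower (20.8%) of 48 (median -0.02). The split turned to 8 higher and 5 lower with median centring and to 7 and 3 without HEA replicate 2, was even at 8 and 8 with quantile normalisation and at 6 and 6 without RA replicate 3, and was 5 and 6 without RA replicate 1. Among the members, Fbln1, a fibulin, and P4ha1, a collagen hydroxylase, rose by 1.22 and 0.34, and Loxl3, a lysyl oxidase, fell by 0.80. Matrix proteases and inhibitors gave 6 higher (20.7%) and 10 lower (34.5%) of 29, and 6 and 5 with median centring, 2 and 8 without HEA replicate 1 and 5 and 5 without HEA replicate 2. Plaur, the urokinase receptor, and Mmp11 fell by 0.84 and 1.04, and Adamts10 and Adamts1 rose by 0.69 and 0.29. Chemokines, cytokines and NF-kB targets gave 11 lower (39.3%) and 2 higher (7.14%) of 28 (median -0.27), and 7 lower without HEA replicate 2 and 1 higher without RA replicate 1 or 2, with Tnfaip2, a TNF-induced gene, at 3.69, 4.71 and 6.20 against 17.3, 14.8 and 14.9 RPKM (-1.61 ± 0.15, adjusted p = 3.85e-08) and Ptgs1, a cyclooxygenase, down by 0.57. Tnfaip6 (1.00) and Nfkb2 (0.28) were called higher, and did not pass without RA replicate 1 (adjusted p = 0.0528) and without RA replicate 2 (0.0641) respectively. Interferon response and antigen presentation gave 10 lower (41.7%) and 6 higher (25.0%) of 24 (6 and 6 without HEA replicate 1), with Ddx58, the sensor RIG-I, down by 0.88 and H2-D1 and H2-K1 up by 0.55 and 0.53. H2-D1 and H2-K1 are similar in sequence and the reads of each are uncertain.

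Signalling genes of other pathways held some of the largest differences. Of 31 tested Wnt, Notch and Hedgehog genes 10 rose (32.3%) and 7 fell (22.6%). Sfrp2, a secreted Wnt antagonist, was at 10.0, 6.37 and 8.83 RPKM in HEA against 1.92, 0.764 and 1.10 in RA (2.37 ± 0.27, adjusted p = 7.68e-07), Notch3 at 2.03, 1.21 and 1.72 against 0.196, 0.158 and 0.181 (1.65 ± 0.22), and Hes1, a Notch target, at 6.35, 4.68 and 5.25 against 13.6, 16.7 and 18.0 (-1.49 ± 0.15). Fzd4, another Wnt receptor, was lower in HEA than in RA by 0.88, while Fzd9 was higher. At Fzd4 RA was the group that stood apart, at 8.93 RPKM against 4.59 in HEA and 4.66 in EV. TGF-beta and BMP signalling gave 6 higher and 6 lower of 33 (18.2% each; 9 and 3 with median centring), with Inhbb, an inhibin subunit, up by 1.77, and the receptors Acvr1b and Tgfbr3 down by 0.81 and 0.60. Circadian clock genes gave 7 lower (43.8%) and 3 higher (18.8%) of 16: Per1 was at 2.31, 2.50 and 2.45 against 6.28, 6.87 and 6.84 RPKM (-1.29 ± 0.20, adjusted p = 2.97e-05), Per3 and Nr1d1 fell by 1.23 and 0.78, and Arntl and Nfil3 rose by 0.68 and 0.42. Arntl drives Per genes, and Per proteins repress that drive, so members of both sides of the loop were called.

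Glycosyltransferases and sulfotransferases gave 14 higher (26.9%) and 15 lower (28.8%) of 52, and 17 and 13 with median centring. Chst15, which sulfates chondroitin, was at 22.6, 20.0 and 18.8 RPKM in HEA against 4.31, 3.25 and 3.42 in RA (2.34 ± 0.13, adjusted p = 5.92e-11), and B4galnt1, a ganglioside synthase, rose by 1.51 while the sialyltransferase St6galnac4 fell by 0.81. Ion channels and carriers gave 8 higher and 8 lower of 29 (27.6% each), with 5 lower without RA replicate 2 or 3 or with a filter of at least 3 RPKM. Trpc1, a cation channel, was at 23.6, 23.1 and 20.5 against 5.23, 4.81 and 5.25 (2.03 ± 0.15, adjusted p = 1.83e-09), Kcnk10, a potassium channel, and Cacnb3, a calcium channel subunit, rose by 1.49 and 0.98, and Clcn2, a chloride channel, fell by 1.19. For Chst15 and Kcnk10 EV was somewhat below RA (2.26 and 5.62 RPKM against 3.66 and 7.33). The gene lists were chosen with earlier results of these data known, so their counts describe these libraries only.

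**Figure D4:**
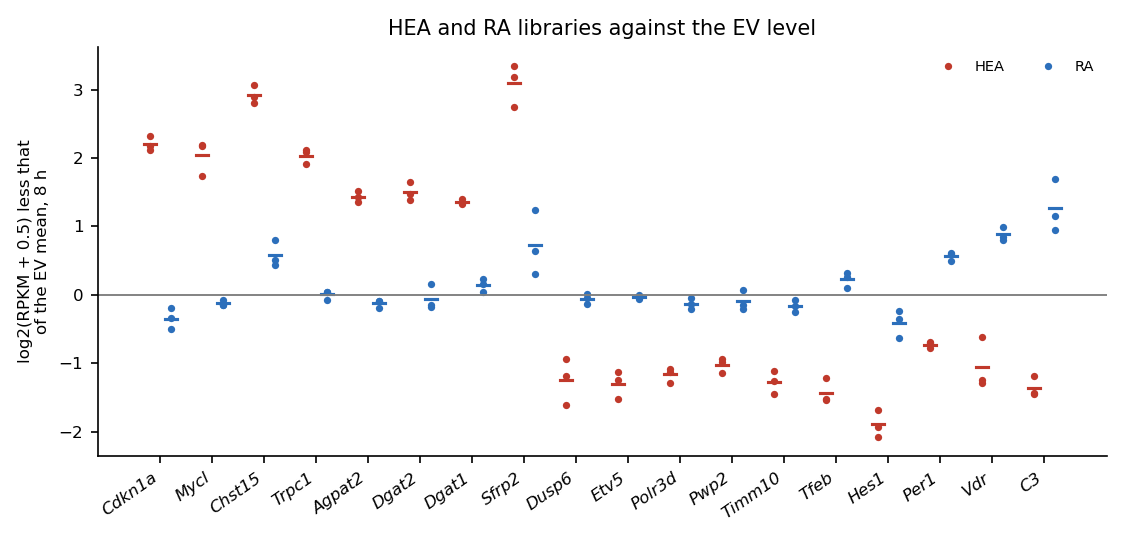
Difference of each HEA and RA library at 8 h from the EV mean of 8 h, in log2(RPKM + 0.5), for 18 named genes; points are libraries, bars are group means, and the grey line at 0 is EV. RA lies near 0 for most of the genes where HEA does not, as for Dgat2 (3.98 RPKM in RA and 4.13 in EV against 12.7 in HEA), and for Vdr and C3 HEA and RA lie on opposite sides of the line.

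The same contrast was read in other libraries, the HEA and RA libraries of 4 h, which share none with those of 8 h. Both contrasts came from the same limma fit, with 1 spread per gene estimated from all 24 libraries. A gene of small spread is therefore more easily called at both times, and the calls at 4 h are not independent of those at 8 h. At 4 h 5674 genes were called (46.3%), 2206 higher (18.0%) and 3468 lower (28.3%). Of the 2195 genes higher in HEA at 8 h, 2170 had the same sign at 4 h and 1717 were called the same way (78.2%), and of the 3318 lower ones 3246 had the same sign and 2570 were called the same way (77.5%). No gene was called in opposite directions at the 2 times, and the 4287 called the same way at both were 75.6% of the 4 h calls. All of the 361 genes at least 2-fold higher at 8 h had the same sign at 4 h, and 342 of them were called (94.7%). Same signs were not counted over all tested genes, so the counts of same sign have no such share beside them. For the genes that led the 8 h comparison, the 4 h values were 5.2 for Pgbd5, 3.98 for Fzd9, 3.05 for Hpse and -3.04 for Chil1. Fgf2 alone among the 30 largest was not called at 4 h, at -0.23 (adjusted p = 0.458), when HEA was at 1.47 and RA at 1.81 RPKM. Its difference between the times, -1.71 ± 0.34, did not pass by limma either (adjusted p = 0.0669).

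**Figure D5:**
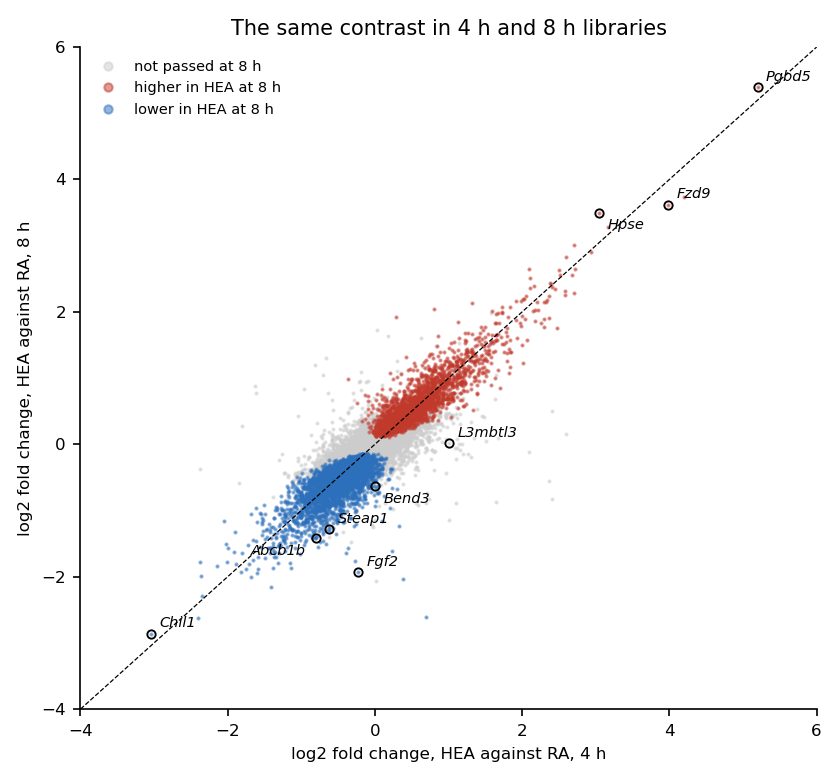
Log2 fold change of HEA against RA at 8 h (vertical axis) against that at 4 h (horizontal axis) for each tested gene, red where higher in HEA at 8 h, blue where lower and grey where the test did not pass at 8 h, with the line of equal change dashed. Most points follow the line, as Pgbd5 does (5.39 and 5.2), and the 4 genes whose change differed between the times, L3mbtl3, Steap1, Bend3 and Abcb1b, lie below it.

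The difference between the 8 h and the 4 h contrast was tested itself, as an interaction in the same limma fit. It was called at 4 of 12268 genes (0.0326%; 801 at an unadjusted p under 0.05), all with a lower value at 8 h. Abcb1b, a drug efflux transporter, was at 9.15, 10.4 and 8.29 RPKM in HEA and 25.8, 26.0 and 24.6 in RA at 8 h, against means of 17.0 and 30.0 at 4 h. Steap1, a membrane protein of the STEAP family, was at 18.7, 18.7 and 17.7 against 44.1, 44.9 and 46.7 at 8 h, and at 30.0 and 46.2 at 4 h. Both were lower in HEA at each time, with a larger gap at 8 h. Bend3, a chromatin protein that represses transcription, was at 19.8 RPKM in HEA and 19.9 in RA at 4 h and at 14.0 and 22.0 at 8 h. L3mbtl3, a reader of methylated histones, was higher in HEA at 4 h (8.46 against 3.96) and at 5.59 against 5.48 at 8 h. The number of such calls ran from 0 to 12 over the settings tried, and it was 0 when only the compared groups entered the fit (1117 at an unadjusted p under 0.05).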

How the data were processed

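RNA was column-purified with DNase and made into stranded total RNA libraries, per the labels' protocols. DESeq2, featureCounts 1.4.5-p1, SAMtools, TopHat, TopHat2 2.0.8 and build mm9 are named, without role or order, per the submitters' processing notes. The authors deposited RPKM per gene and library, per the file headers. Their comparison table gives a baseMean (a mean of normalised counts, per the file headers), used to set gene lengths when whole reads were recovered: 98.1% of 362673 values lay within 0.01 read of a whole number. Members and lists were chosen with earlier results of these data known. A limma-trend fit (limma 3.58.1, R 4.3.3) took log2(RPKM + 0.5) of 24 libraries as 8 group means with 16 residual degrees of freedom, adjusting by Benjamini-Hochberg over 12268 genes at a threshold of 0.05. It was tested on simulated data. The floor of 3 reads was 0.254 to 0.297 CPM and covers counting error only. Python 3.11.15 with numpy 2.4.6, pandas 2.3.3 and matplotlib 3.10.9 did the rest. Named genes were Myc, Esr1, the 15 largest called rises and falls (mean of at least 1 RPKM, groups not overlapping, predicted, small RNA, histone and multi-copy genes passed over), for each list the 3 called members of smallest p and up to 2 called against its majority, called Myc/Max members, and up to 5 called time differences each way. Thy1 and Nudt6 were named after the values were seen, and some genes that the rule names are not reported here. There were 30 gene lists, 6 marker lists and 1 RNA quality list; the macrophage, endothelial and adipocyte markers summed to 22.8 to 24.4, 1.90 to 3.37 and 2.78 to 6.25 RPKM in HEA and 21.3 to 23.2, 2.37 to 2.60 and 4.79 to 7.15 in RA. Alternatives were other pseudocounts and filters, median centring, quantile normalisation, no trend, only the compared groups, a replicate block, each library left out and, chosen after seeing the data, voom on recovered reads.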

Additional observations from a re-analysis of the deposited data

Results flagged for a closer look

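The change of HEA against RA differed between 8 h and 4 h at 4 genes, by the interaction term in the limma fit. The difference of the log2 fold changes (8 h less 4 h) was -0.98 ± 0.14 (SE) for L3mbtl3 (adjusted p = 0.00678), -0.63 ± 0.10 for Bend3 (0.0155), -0.66 ± 0.11 for Steap1 (0.0169) and -0.61 ± 0.10 for Abcb1b (0.0244), with 3 libraries in each of the 4 groups. In every case the 8 h value was the lower. L3mbtl3 passed in 21 of 22 other settings (adjusted p 0.00104 to 0.093), Bend3 in 17 (0.00704 to 0.093), Steap1 in 14 (0.0036 to 0.165) and Abcb1b in 12 (0.00635 to 0.218).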

How the results depend on the processing

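The 5513 genes called at 8 h became 5112 to 6330 in the settings that kept all 6 libraries and 4507 to 5074 when 1 of them was left out, and the 5674 called at 4 h became 4774 to 5677 with 1 library left out. Of 150 named genes called, 10 lost the call in at least 1 of 16 settings, and over 2443 pairs of a gene and a setting none of the calls changed direction. Voom on the recovered reads, chosen after seeing the data, called 5554. The count of genes whose contrast differed between the times moved most: 12 with no filter on low values, 11 with quantile normalisation and 0 by limma with only the groups compared (1117 at an unadjusted p under 0.05), against 4. With 1 library left out it ran from 1 to 7: 1 without HEA replicate 3, RA replicate 2 or RA replicate 3 of 8 h or RA replicate 3 of 4 h, 2 without HEA replicate 2 or 3 of 4 h, and 7 without RA replicate 1 of 8 h. Replicate numbers did not pair the libraries: the deviations of same-numbered HEA and RA libraries correlated at 0.03, 0.00 and -0.01. With the replicate block, limma called 5416 genes at 8 h, 5547 at 4 h and 4 between the times. List counts moved by over 1.5 times in 77 of 1180 comparisons. Depth limits the lowest levels, such as Pgbd5 in RA at 4 reads, where a fold change depends on the pseudocount.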
